A study of Mus musculus with 4 samples.

Results

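The genes described here encode acute-phase proteins, secreted proteins whose synthesis goes up in inflammation. The listed genes were Saa1, Saa2, Saa3, Lbp, Lrg1, Hp, Lcn2, C3 and Cp, and a probe set belonged to one of them when the platform annotation gave it that gene symbol alone. This found 17 probe sets for 8 of the 9 genes, out of 45037 probe sets and 18193 named genes on the array. No probe set was listed under C3 in the annotation used here, so C3 was not analysed. All 8 genes had at least 1 probe set at or above the floor on at least 1 array. The genes were picked with their values on these arrays known, so their levels and differences are a description and no test was made of them.

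Colonic intestinal epithelial cells (IECs) of C57BL/6 mice were profiled on GeneChip Mouse 430 2.0 arrays, 1 array for each of 4 genotypes: wild type (WT), Bmi1ΔIEC, Mel18ΔIEC and the double knockout (DKO, Bmi1ΔIEC Mel18ΔIEC). Bmi1 and Mel18 (gene symbol Pcgf2) are alternative partners in Polycomb repressive complex 1, which modifies histones and silences genes, and ΔIEC marks loss in intestinal epithelial cells. All mice, the wild type included, were sex-matched, 6 to 8 weeks old and in the colitis-associated colorectal cancer model: the carcinogen azoxymethane at 10 mg/kg, then after 5 days 3.5% dextran sulfate sodium, which damages the colon lining, in the drinking water for 5 days, with cells taken on day 12. Cells were released from colon pieces with 5 mM EDTA and no sorting step is described, there was no untreated array, and neither the Cre driver nor the number of mice behind an array is given in the sources used here. The wild-type array is therefore the only control, and every value below is from 1 array with no replicate check.

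Most plasma acute-phase proteins come from the liver, where interleukin 6 family cytokines acting through STAT3, and interleukin 1 and tumour necrosis factor acting through NF-kB and C/EBP factors, induce their genes. The gut lining makes several of them itself. Serum amyloid A proteins (Saa1, Saa2, Saa3) bind lipid and retinol, and Saa3 in the mouse is made mainly outside the liver. Lbp hands bacterial lipopolysaccharide to Cd14, Lrg1 is a leucine-rich glycoprotein that modulates TGF-beta signalling, Hp (haptoglobin) binds free haemoglobin, Lcn2 (lipocalin 2) captures bacterial iron carriers and Cp (ceruloplasmin) is a copper-containing ferroxidase. Hp, Lcn2 and Lrg1 are also stored in neutrophil granules.

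The epithelial label was read against its markers. All 21 measured epithelial markers of 22 listed, among them Epcam, Cdh1 and Krt8, lay at or above the floor on every array. The floor used throughout is 33.4 intensity units, the median over every probe set and array, and array medians ran from 32.1 to 34.2. Of these markers Cldn4, a tight-junction claudin, was called lower on the single-knockout arrays at -2.23 and -1.79, Krt20, a keratin of mature cells, on the Bmi1-labelled array at -1.29 and the chloride exchanger Slc26a3 on the DKO-labelled array at -1.15. Fabp2, a fatty acid carrier, was called higher on all 3 knockout arrays (1.20, 1.33 and 1.32) and Car1, a carbonic anhydrase, on the DKO-labelled array (1.45), by the rule of size given with the differences of the acute-phase genes. The targeted transcripts did not check the labels: the first Bmi1 probe set read 116 units in WT, 334 for the Bmi1-labelled sample, 160 for the Mel18-labelled sample and 432 for the DKO-labelled one, which goes against a loss of transcript, and the brighter Pcgf2 probe set stayed between 30.2 and 39.8. The deleted exons are not given, so each array is named by the genotype on its label. Across probe sets the arrays correlated (Spearman) between 0.969, for the Bmi1-labelled and DKO-labelled pair, and 0.990, for the Bmi1-labelled and Mel18-labelled pair.

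Saa1, Saa2 and Saa3 lie in 1 cluster on chromosome 7, in the order Saal1, Saa3, Saa4, Saa1, Saa2, Hps5 among protein-coding genes. The promoters of these genes are shown because the first pair, near-identical in sequence, and Saa3 behaved differently on the arrays, and that of Lrg1 because this gene had the largest differences. Each is the RefSeq window of GRCm38.p6 from 250 bases before to 50 after the annotated start, printed along the gene's own strand: Saa1 at chr7:46742931-46743230 (minus strand), Saa2 at chr7:46751583-46751882 (plus strand), Saa3 at chr7:46715627-46715926 (minus strand) and Lrg1 at chr17:56121897-56122196 (minus strand). Capitals mark matches to the C/EBP motif (Saa genes) or to a TATA motif (Lrg1).
Saa1: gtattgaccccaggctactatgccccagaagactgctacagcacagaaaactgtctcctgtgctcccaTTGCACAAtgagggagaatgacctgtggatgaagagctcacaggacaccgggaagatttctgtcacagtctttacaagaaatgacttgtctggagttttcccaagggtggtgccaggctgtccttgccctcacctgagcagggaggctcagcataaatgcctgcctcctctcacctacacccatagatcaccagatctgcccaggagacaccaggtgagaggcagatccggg
Saa2: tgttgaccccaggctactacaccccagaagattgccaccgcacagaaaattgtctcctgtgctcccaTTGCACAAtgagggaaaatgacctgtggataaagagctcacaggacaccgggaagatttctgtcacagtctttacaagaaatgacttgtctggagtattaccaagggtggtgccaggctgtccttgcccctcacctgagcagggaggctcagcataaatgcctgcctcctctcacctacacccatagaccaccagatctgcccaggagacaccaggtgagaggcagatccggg
Saa3: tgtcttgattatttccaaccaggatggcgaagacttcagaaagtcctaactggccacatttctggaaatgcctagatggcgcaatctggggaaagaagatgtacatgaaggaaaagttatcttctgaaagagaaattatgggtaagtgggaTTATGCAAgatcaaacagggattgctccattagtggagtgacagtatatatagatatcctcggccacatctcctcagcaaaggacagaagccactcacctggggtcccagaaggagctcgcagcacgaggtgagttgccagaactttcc
Lrg1: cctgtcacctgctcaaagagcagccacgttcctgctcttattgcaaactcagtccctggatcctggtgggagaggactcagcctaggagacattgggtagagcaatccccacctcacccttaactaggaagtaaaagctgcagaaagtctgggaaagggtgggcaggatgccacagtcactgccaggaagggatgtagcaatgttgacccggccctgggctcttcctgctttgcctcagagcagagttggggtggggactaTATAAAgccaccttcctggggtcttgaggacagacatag
The Saa1 and Saa2 windows were identical at 287 of 301 aligned positions (95.3%). Saa1 and Saa3 matched at 49.4%, inside the range of 43.5% to 51.4% for all other pairs of these promoters with 1 window taken per gene. The motifs searched were STAT (TTCNNNGAA), C/EBP (TTGCNNAA) and the NF-kB consensus on both strands, and TATAAA on the gene's strand. A C/EBP match was present in Saa1 and Saa2 (TTGCACAA, at positions -182 and -183 from the start), in Saa3 (TTATGCAA, on the opposite strand, at -99), in Lcn2 (TTGCTCAA, at -216) and in 1 of the 2 Cp windows, against 10.8% of the 32851 promoters of this length in the table. No Lrg1 match to this motif, and no STAT or NF-kB match in any of these windows, was found, against 8.30% and 8.46% of all promoters. TATAAA occurred in Lrg1 (at position 12, after the annotated start) and in the same Cp window, against 8.32% of all promoters. These are matches of letters and say nothing of binding. Lbp and Hp have no window in the table.

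In all, 7 of the 8 genes read highest on the wild-type array. Hp, the exception, was highest on the DKO-labelled array. Over all 12154 genes at or above the floor, the wild-type array was the highest for 19.9%. The lowest array was the Bmi1-labelled one for 4 of the 8 genes (Saa3, Lbp, Lrg1, Hp), the Mel18-labelled one for Lcn2 and Cp, and the DKO-labelled one for Saa1 and Saa2.

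**Figure D1:**
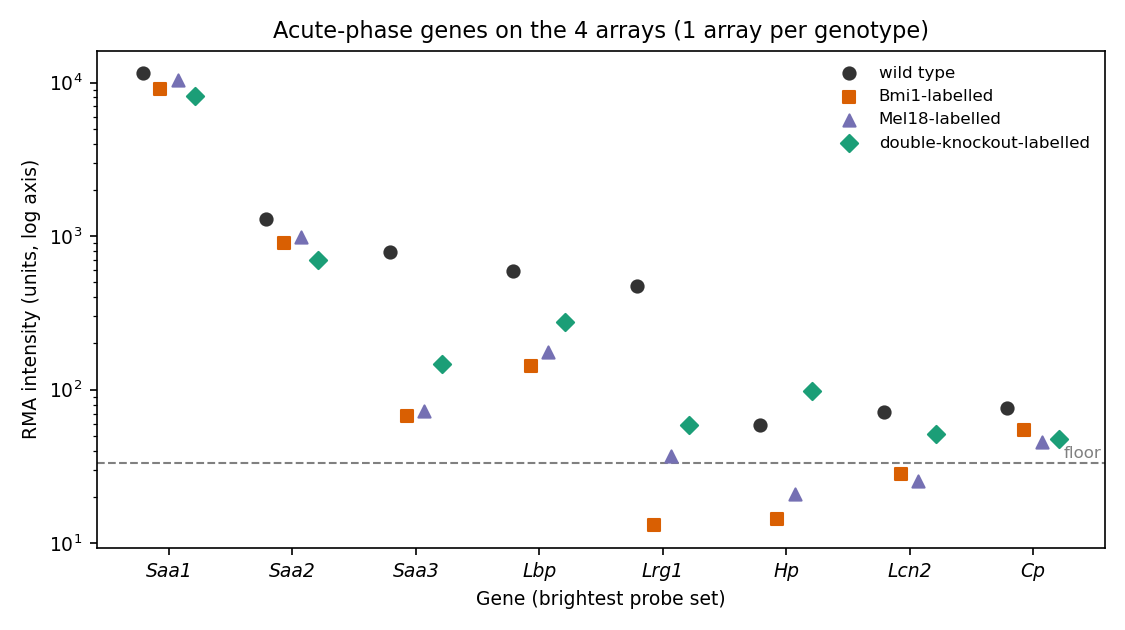
RMA intensity (log axis) of the brightest probe set of each of 8 acute-phase genes on the 4 arrays, 1 point per array and no error because each genotype has 1 array. The dashed line is the floor of 33.4 units. Saa3, Lbp and Lrg1 read 786, 593 and 476 in WT and lower on every other array, whereas Hp read 98.6 on the DKO-labelled array, above its WT value of 59.3.

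Differences below are log2 of 1 array over another. A gene was called higher or lower when the 2 values differed at least 2-fold, 1 on the log2 scale, and the higher one reached the floor. This is a rule of size and not a test.

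Saa3 read 786 units in WT, 67.9 for the Bmi1-labelled sample, 72.6 for the Mel18-labelled sample and 148 for the DKO-labelled one. The WT array stood far above the rest and the DKO-labelled array lay between it and the 2 single-knockout arrays, which were close to each other. Against WT the log2 differences were -3.53, -3.44 and -2.41 in that order, folds of 11.6, 10.8 and 5.31. All 4 values lay above the floor, the single-knockout ones nearest to it, and with 32 units added before the logarithm the differences were -3.03, -2.97 and -2.18. In such bulk preparations fewer cells of a type and less RNA per cell cannot be told apart. From the lowest difference up, Saa3 ranked 20 of 11934 genes tested for the Bmi1-labelled sample, 13 of 11862 for the Mel18-labelled sample and 17 of 11853 for the DKO-labelled one.

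Saa1 and Saa2 were within 2-fold in every comparison. The brighter Saa1 probe set read 11475 in WT, 9019 for the Bmi1-labelled sample, 10337 for the Mel18-labelled sample and 8206 for the DKO-labelled one. Its differences from WT of -0.35, -0.15 and -0.48 were all under 2-fold, and its 4 arrays spanned 1.40-fold. The Saa2 probe set read 1294, 903, 987 and 703, with differences of -0.52, -0.39 and -0.88. Both genes had the same order of arrays, WT, Mel18-labelled, Bmi1-labelled, DKO-labelled, with the steps between neighbours running from 0.13 to 0.39 on the log2 scale and no spread to set it against. The second Saa1 probe set read 10125, 7257, 8337 and 6536 in the order WT, Bmi1-labelled, Mel18-labelled, DKO-labelled, and its target accession belongs to Saa2 in RefSeq although the platform lists it under Saa1. That probe set and the Saa2 one are of the types that can bind transcripts of related genes, so their signals may mix Saa1 and Saa2. The brighter Saa1 probe set is not of those types and its target is Saa1 in RefSeq. Their neighbour Saa4, a serum amyloid A made constitutively, lay under the floor on all 4 arrays at 15.7 to 20.2 units.

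Lbp read 593 in WT, 143 for the Bmi1-labelled sample, 176 for the Mel18-labelled sample and 274 for the DKO-labelled one. As for Saa3, WT was highest and the DKO-labelled array came next. The differences from WT were -2.05, -1.75 and -1.11, past the rule each time. A second Lbp probe set lay nearer the floor at 50.6, 29.4, 23.1 and 44.8, and its differences of -0.78, -1.13 and -0.17 were smaller. By the mean of the 2 probe sets the DKO-labelled difference was -0.64 and no longer past the rule.

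Lrg1 read 476 in WT, 13.1 for the Bmi1-labelled sample, 37.2 for the Mel18-labelled sample and 59.3 for the DKO-labelled one. WT stood alone, and the Bmi1-labelled value lay under the floor. Differences from WT were -5.18, -3.68 and -3.00. Raising the Bmi1-labelled value to the floor leaves WT at least 14.3-fold above it. Lrg1 ranked 5, 10 and 5 from the lowest among the genes tested on the Bmi1-labelled, Mel18-labelled and DKO-labelled arrays.

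Hp read 59.3 in WT, 14.4 for the Bmi1-labelled sample, 21.0 for the Mel18-labelled sample and 98.6 for the DKO-labelled one. Both single-knockout values were under the floor, and the DKO-labelled value was the highest of the 4. The differences from WT of -2.04 and -1.50 on the single-knockout arrays passed the rule as deposited, but with values under the floor raised to it the gene was at least 1.78-fold lower, which does not pass. The DKO-labelled difference of 0.73 did not pass either.

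Lcn2 read 71.8 in WT, 28.3 for the Bmi1-labelled sample, 25.6 for the Mel18-labelled sample and 51.1 for the DKO-labelled one. The pair of single-knockout values under the floor were again below the other 2, and here WT was highest. Differences from WT were -1.34, -1.49 and -0.49, and at least 2.15-fold for each single-knockout array against the floor. With 32 units added before the logarithm, neither Hp (-0.98 and -0.79) nor Lcn2 (-0.78 and -0.85) passed the rule on the single-knockout arrays.

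Of the 8 Cp probe sets 6 lay under the floor on every array. The brightest read 76.0 in WT, 54.9 for the Bmi1-labelled sample, 45.9 for the Mel18-labelled sample and 47.4 for the DKO-labelled one, and its differences of -0.47, -0.73 and -0.68 were under 2-fold. The other one above the floor read 64.2, 44.0, 34.3 and 56.2. WT was highest on both, and they disagreed on the DKO-labelled array, at -0.68 against -0.19.

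**Figure D2:**
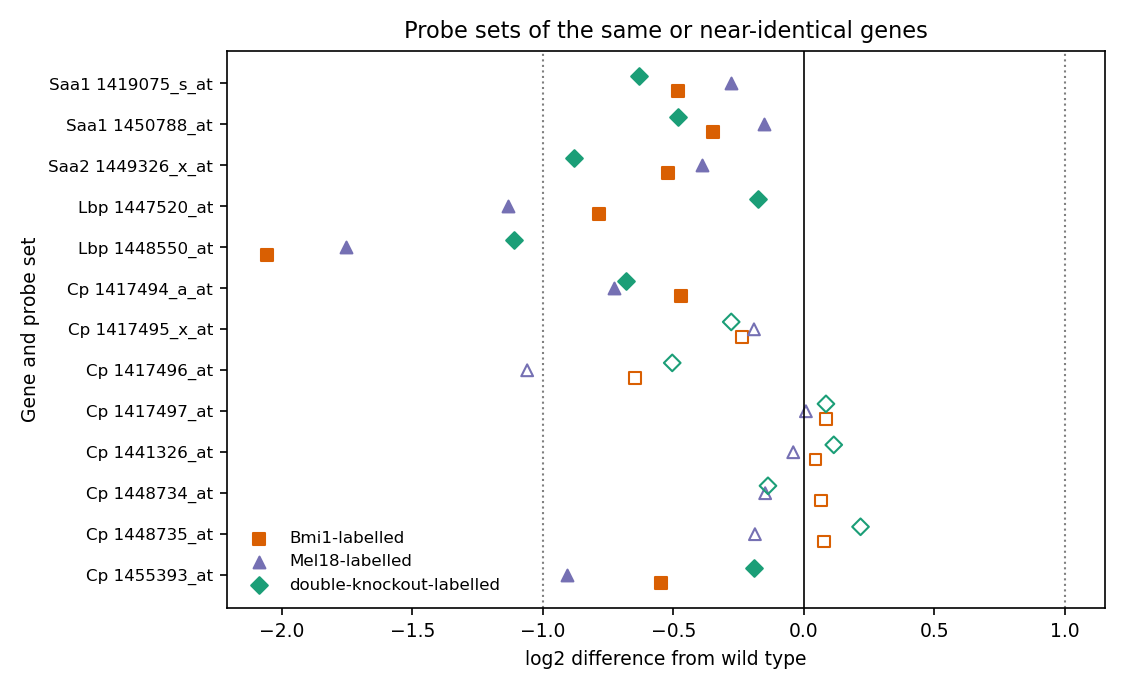
Log2 difference from the wild-type array of every probe set of Saa1, Saa2, Lbp and Cp on the 3 knockout arrays. Filled symbols are probe sets at or above the floor on at least 1 array, open symbols those under it on all 4, and dotted lines mark 2-fold. The Saa1 and Saa2 probe sets lie between -0.88 and -0.15, the 2 Lbp probe sets differ in size, and the open Cp symbols lie between -0.28 and 0.22 except those of 1 probe set, which reaches -1.06.

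Against WT, 5 of the 8 genes were called lower on the Bmi1-labelled array (Saa3, Lbp, Lrg1, Hp, Lcn2) and none higher, where 2.86% of all genes tested were called lower and 5.76% higher, 8.61% in all. The same 5 genes were called lower on the Mel18-labelled array, where 2.50% of genes were lower and 3.15% higher, 5.65% in all. On the DKO-labelled array 3 were called lower (Saa3, Lbp, Lrg1) and none higher, against 2.19% and 2.13% of all genes, 4.32% in all. These 3 were the ones called lower on all 3 knockout arrays, against 0.337% of genes, and no member was called higher on all 3, against 0.420%. Since the genes were picked for such differences, nothing is read from these counts, and the 3 comparisons share the WT array.

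The members' median differences were -1.69, -1.50 and -0.78, beside medians over all genes tested of 0.13, 0.07 and -0.01. The shift of 0.13 on the Bmi1-labelled array applies to the median gene, and became 0.22 with arrays centred on all probe sets and -0.12 with arrays centred on genes at or above the floor. Relative to it the differences on that array were -0.47 (Saa1), -0.65 (Saa2), -3.66 (Saa3), -2.18 (Lbp), -5.31 (Lrg1), -2.16 (Hp), -1.47 (Lcn2) and -0.59 (Cp). Every member's difference from WT kept its sign under the 3 other scalings tried.

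**Figure D3:**
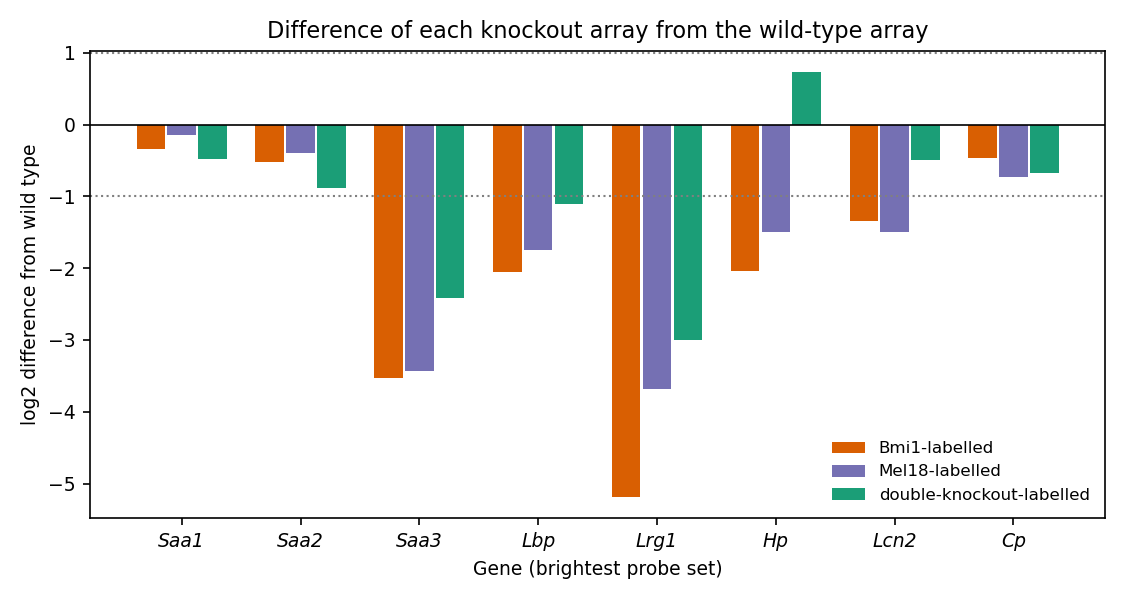
Log2 difference of the Bmi1-labelled, Mel18-labelled and DKO-labelled arrays from the wild-type array for 8 acute-phase genes, 1 bar per array and no error because each genotype has 1 array. Dotted lines mark 2-fold. The bars of Saa3, Lbp and Lrg1 pass -1 on all 3 arrays, those of Hp and Lcn2 on the single-knockout arrays, and those of Saa1, Saa2 and Cp on none.

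**Figure D4:**
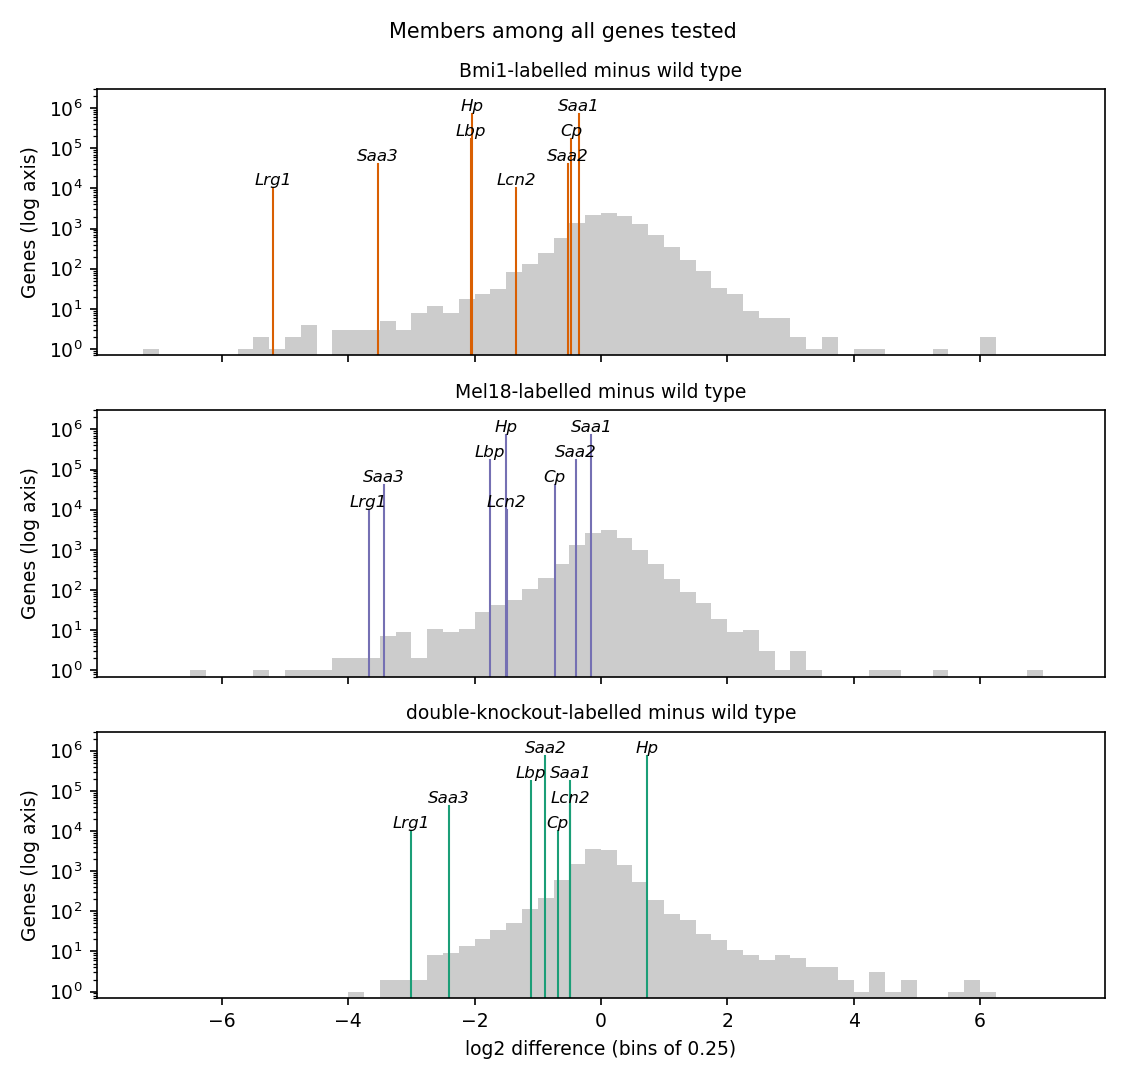
Number of genes (log axis) in bins of 0.25 of the log2 difference from the wild-type array, in grey, with the 8 acute-phase genes as lines whose height has no meaning, 1 panel per knockout array. Lrg1 and Saa3 lie in the sparse lower tail of each panel, at -3.00 and -2.41 in the DKO-labelled panel, while Saa1, Saa2 and Cp lie nearer to 0, between -0.88 and -0.15, with Saa2 at rank 338 from the lowest of 11853 genes in that panel.

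The DKO-labelled array was then set against each single-knockout array, which leaves out WT. Against the Bmi1-labelled array 3 of the 8 genes were called higher, Saa3 at 1.12, Lrg1 at 2.18 and Hp at 2.77, and none lower, where 4.30% of all genes tested were called higher and 7.96% lower, 12.3% in all. Against the Mel18-labelled array 3 were called higher, Hp at 2.23, Saa3 at 1.03 and Lcn2 at 1.00, and none lower, where 3.84% of genes were higher and 4.53% lower, 8.37% in all. Saa3 and Lcn2 lie at the edge of the rule here. With arrays centred on the median of all probe sets they read 0.97 and 0.95 and did not pass. With 32 units added, Saa3 passed in neither comparison, at 0.85 against the Bmi1-labelled and 0.78 against the Mel18-labelled array, nor did Lcn2 at 0.53.

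Hp had the largest of these differences, and it read at least 2.96-fold higher on the DKO-labelled array than on each single-knockout array when their values under the floor were raised to it. Lbp lay at 0.94 and 0.64, Saa2 at -0.36 and -0.49 and Saa1 at -0.14 and -0.33, so the members did not differ in 1 direction between these arrays. The sign of the first Saa1 value and of both Cp values (-0.21 and 0.05) changed with the scaling.

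The single-knockout arrays differed by at least 2-fold in 1 member, Lrg1, at -1.50 for Bmi1-labelled minus Mel18-labelled, where 0.522% of genes tested were called lower and 0.882% higher, 1.40% in all. Since the Bmi1-labelled Lrg1 value is under the floor, raising it to the floor takes this difference to -0.16. Hp and Lcn2 lay under the floor on both arrays and were not tested in this comparison.

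A non-additive term was taken for each gene on the log2 scale, by adding the WT and DKO-labelled values and subtracting both single-knockout values. It was 4.56 for Saa3 and 2.70 for Lbp, whose values all lay above the floor. For Lrg1, Hp and Lcn2 it was 5.86, 4.27 and 2.34 as deposited, and 4.51, 2.39 and 1.72 with single-knockout values under the floor raised to it. It was 0.52 for Cp, 0.03 for Saa2 and 0.01 for Saa1. In all 5 members were past 1 in the higher direction and none in the lower, beside 8.70% and 18.6% of 12154 genes, 27.3% in all. For the 5 genes the DKO-labelled array thus read above the sum of the separate differences. The WT value enters this term and every difference from WT, so the term is not separate evidence of those.

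By distance over the 3 differences from WT, the members formed no single group. The closest pair was Saa2 and Cp at 0.39, followed by Saa1 and Saa2 at 0.49, and the farthest was Saa1 and Lrg1 at 6.49. The order of the first pairs depends on the brightest Cp probe set. The other one above the floor differed from it on the DKO-labelled array, at -0.19 against -0.68. Distances of Lrg1, Hp and Lcn2 rest in part on values under the floor. The member nearest to Saa3 was Lrg1, at 1.77, and Saa1 lay at 4.97 from Saa3 although both are in the same cluster of genes. The flanking genes Saal1 (0.37, 0.10 and -0.10) and Hps5 (0.27, 0.16 and -0.97) were not called in any comparison with WT.

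Among 11632 other genes that reached the floor on at least 1 array, the nearest to each member were taken by the same distance. For Saa3 they were Sprr2h, a small proline-rich protein of squamous epithelium (distance 0.46), and the neutrophil-attracting chemokine Cxcl3 (1.00), which reached the floor in WT (51.6) and lay under it on the knockout arrays, so that its 3 differences rest on values under the floor. For Lrg1 they were Plet1 (1.34) and Sprr2h (1.37), and no gene lay within 0.5 of it. For Lbp the nearest were the histidine-degrading enzyme Hal (0.22) and keratin Krt1 (0.32), at 47.9 and 59.6 in WT and under the floor on all 3 knockout arrays, so this likeness too rests on values under the floor. Those of Hp were Ly6d (0.33) and Tyrobp, a signalling adaptor of myeloid cells (0.40). Here the single-knockout values of Hp itself (14.4 and 21.0 units) were under the floor. Lcn2 lay nearest to Tlcd2 (0.09) and Ntn5 (0.11) and Cp to Gpx2, an epithelial glutathione peroxidase (0.09), and Pmvk (0.10). Saa1 lay nearest to Polg (0.04) and Npc1 (0.05) and Saa2 to the water channel Aqp4 (0.03) and Incenp (0.07), which had 1797 and 247 genes within 0.5. Cp had 293 genes within that distance, Lcn2 42, Lbp and Hp 5 each and Saa3 1. This likeness rests on 3 differences that share the WT array. For Hp, Lcn2 (28.3 and 25.6 units on the single-knockout arrays) and Lrg1 (13.1 on the Bmi1-labelled array) it also rests on member values under the floor.

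The cytokines that induce these genes, and their receptors, were next compared, from a list with 25 of 30 genes measured. Of 18 tested, 5 were called lower and 1 higher on the Bmi1-labelled array, and 4 lower and 1 higher on the Mel18-labelled array. On the DKO-labelled array 1 of 19 was lower and 1 higher. These are 33.3%, 27.8% and 10.5% of the genes tested, beside 8.61%, 5.65% and 4.32% of all genes called in either direction. This list and those below were chosen with earlier results of these data known, so the shares are a description. Singled out after their values were seen, the other genes called lower were tumour necrosis factor (Tnf, -1.36 and -1.32) and its receptor Tnfrsf1b (-1.34 and -1.16) on the single-knockout arrays, Bmi1-labelled first, and oncostatin M (Osm, -1.13) on the Bmi1-labelled array. The list medians of -0.17, -0.11 and 0.19 stand beside 0.13, 0.07 and -0.01 for all genes.

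Osmr, the receptor of the interleukin 6 family cytokine oncostatin M, read 203 in WT, 39.4 for the Bmi1-labelled sample, 35.8 for the Mel18-labelled sample and 34.4 for the DKO-labelled one. It was low on all 3 knockout arrays, as Saa3, Lbp and Lrg1 were, at -2.36, -2.50 and -2.56. Il1b, the secreted interleukin 1 beta, read 1161, 96.2, 129 and 928, low on the single-knockout arrays, with -3.59 and -3.17 there and -0.32 on the DKO-labelled array, which was not called. Its receptor Il1r1 differed in the other direction at 1.62, 1.11 and 0.49, and the alarmin Il33 was high on the DKO-labelled array at 2.73. Il6 lay under the floor on all 4 arrays, at 6.02 to 11.7 units.

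Downstream, 30 signalling and transcription factor genes of 36 listed were tested. On the Bmi1-labelled array 2 were called lower and 1 higher, on the Mel18-labelled array 1 lower and none higher, and on the DKO-labelled array none. The single-knockout counts are 10.0% and 3.33% of the list. Over all genes 8.61%, 5.65% and 4.32% were called on the 3 arrays. Medians were -0.06, -0.03 and 0.12. Socs3, the feedback inhibitor that STAT3 induces, read 979 in WT, 436 for the Bmi1-labelled sample, 479 for the Mel18-labelled sample and 1652 for the DKO-labelled one. Its order of arrays was that of Hp, with differences of -1.17, -1.03 and 0.76. Tnfaip3, an inhibitor of NF-kB signalling, differed by -1.02, -0.76 and -0.64, and Foxa2, a transcription factor of liver and gut epithelium, by 1.04, 1.00 and -0.69, the second of these just under the rule before rounding. Stat3 itself read 891, 722, 817 and 993, and its differences from WT were under 2-fold on every array.

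Receptors and partners of the members came next. Of 24 tested, 1 was lower for the Bmi1-labelled sample, 2 for the Mel18-labelled sample and 1 for the DKO-labelled one, and none was higher on any. These are 4.17%, 8.33% and 4.17% of the list, near the 8.61%, 5.65% and 4.32% of all genes called in either direction. Fpr2, a receptor for serum amyloid A on phagocytes, read 82.1, 20.6, 24.3 and 88.6 in the order WT, Bmi1-labelled, Mel18-labelled, DKO-labelled. It was called lower on both single-knockout arrays, where its values lay under the floor. Itgb2, the chain of leukocyte integrins, was called lower on the Mel18-labelled array at -1.15, and the transferrin receptor Tfrc on the DKO-labelled array at -1.04. Cd14, to which Lbp hands lipopolysaccharide, read 1199, 1549, 756 and 722, with differences of 0.37, -0.66 and -0.73.

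Of 34 complement genes listed 29 were measured, and 15 were tested on each single-knockout array and 14 on the DKO-labelled array. Called lower were 3, 1 and 1 of them, and none, none and 1 higher. In either direction that was 20.0%, 6.67% and 14.3% of the genes tested, beside 8.61%, 5.65% and 4.32% of all genes. C1qa and C1qb, made by macrophages, differed by -1.27 and -1.21 on the Bmi1-labelled array and C2 by -1.27 on the Mel18-labelled array. The other genes called lower were C1qc, at -1.12 on the Bmi1-labelled array, and C1ra, at -1.04 on the DKO-labelled array. Cd55, which shields cells from complement, read 233 in WT and 912 on the DKO-labelled array. List medians were -0.46, -0.41 and -0.20.

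Markers of myeloid cells read lower on the single-knockout arrays, as the 5 members did. The neutrophil list had 23 of 27 genes measured, and its summed level was 3755 units in WT, 1480 for the Bmi1-labelled sample, 1434 for the Mel18-labelled sample and 2897 for the DKO-labelled one. At or above the floor were 12, 3, 7 and 13 of these genes. Among granule genes on the list, Mpo, Prtn3, Ctsg, Camp and Mmp8 were under it on every array, and Elane reached it on the DKO-labelled array (34.4). Ngp and Mmp9 reached it on all but the Bmi1-labelled array (28.1 and 25.0 there) and Ltf on all but the Mel18-labelled array (32.1 there). Cd177 alone made up 974, 1000, 832 and 258 units of the sums, which without it were 2781, 480, 602 and 2639. Called lower were 6 of 12 tested for the Bmi1-labelled sample, 5 of 12 for the Mel18-labelled sample and 1 of 14, Cd177 at -1.92, for the DKO-labelled one. These are 50.0%, 41.7% and 7.14%, where 2.86%, 2.50% and 2.19% of all genes tested were called lower.

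S100a8, a calprotectin subunit of neutrophils, read 935 in WT, 33.1 for the Bmi1-labelled sample, 93.4 for the Mel18-labelled sample and 851 for the DKO-labelled one, and S100a9 differed by -5.58, -3.85 and -0.06. Ltf, a granule protein, differed by -2.62, -3.58 and -0.41, and the lectin receptor Clec4d by -3.10, -2.26 and -0.11. The other genes called were Clec4e, at -2.75 and -1.93 on the single-knockout arrays, and Hdc, at -1.11 on the Bmi1-labelled array. On that array S100a9 (16.0 units), Clec4d (10.5), Clec4e (8.66) and Hdc (17.7) lay under the floor, and S100a8 just under it. On the Mel18-labelled array Clec4d (18.7) and Clec4e (15.3) lay under the floor, and Ltf just under it. The sizes of these differences are limited by that. S100a8, S100a9, Ltf and Clec4d were within 2-fold of WT on the DKO-labelled array, where Saa3, Lbp and Lrg1 were called lower. Hp (0.73) and Lcn2 (-0.49) were within 2-fold of WT there too.

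The macrophage and monocyte list, with 21 of 22 genes measured and 19 at or above the floor, summed to 5294, 3296, 3198 and 5728 in the order WT, Bmi1-labelled, Mel18-labelled, DKO-labelled. Without Cd14, which gave 1199, 1549, 756 and 722 of these, the sums were 4096, 1747, 2442 and 5007. Of 19 tested, 10 were called lower for the Bmi1-labelled sample, 4 for the Mel18-labelled sample and none for the DKO-labelled one. The single-knockout counts are 52.6% and 21.1% of the genes tested. Of all genes 2.86%, 2.50% and 2.19% were called lower in the same order of arrays. Tyrobp differed by -2.01, -1.67 and 0.38, Fcer1g by -1.66, -1.02 and 0.59, Fcgr3 by -1.69, -1.72 and -0.22 and Clec7a by -1.56, -1.50 and 0.51. Sums for fibroblast markers (15 of 15 measured) were 5478, 2596, 5218 and 7769, and for T and NK cell markers (14 of 16) 1182, 877, 687 and 2241. Of the hepatocyte list (20 of 24 measured, 7 at or above the floor on some array), Alb, Fgb, Fga, Fgg and Ahsg lay under the floor on all 4 arrays. That list summed to 2042, 6493, 5329 and 3314, of which Ttr made up 954, 4883, 3595 and 1456. Hpd (299, 699, 805 and 442), Apob (304, 366, 351 and 667), Cps1 (79.6, 224, 162 and 292) and Tat (157, 76.2, 178 and 161) were also above the floor on every array. Apoa1 and Apoh reached it on some. Called were 57.1%, 50.0% and 42.9% of those tested on the 3 knockout arrays, all higher except Tat on the Bmi1-labelled array. Of all genes 8.61%, 5.65% and 4.32% were called in either direction. The part of the myeloid, fibroblast and T cell markers in the members' differences was not tested.

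**Figure D5:**
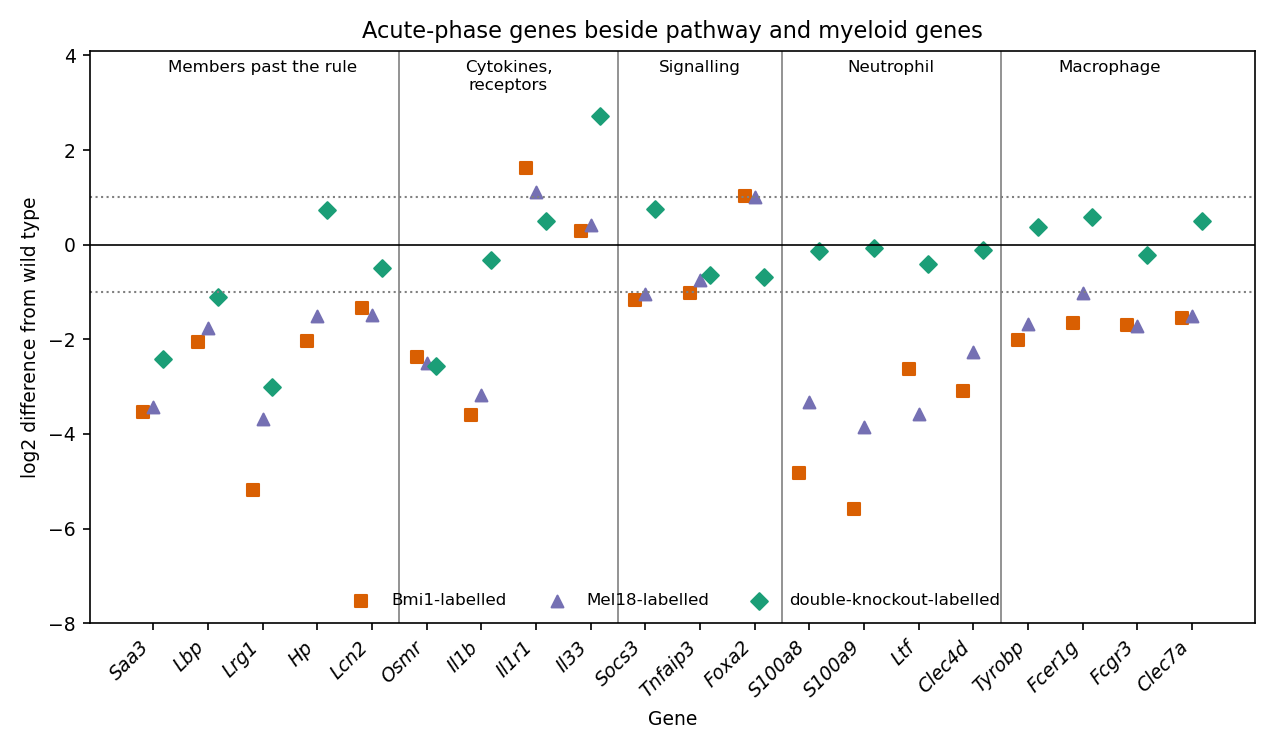
Log2 difference from the wild-type array of the 5 acute-phase genes called lower, beside up to 4 genes with the largest differences past the rule from each of the cytokine, signalling, neutrophil and macrophage lists, 1 symbol per knockout array. Dotted lines mark 2-fold. The DKO-labelled symbols of the 8 plotted neutrophil and macrophage genes lie between -0.41 and 0.59 (Cd177, at -1.92, is not among them). Those of Hp (0.73) and Lcn2 (-0.49) also lie within 2-fold of WT, while those of Saa3, Lbp, Lrg1 and Osmr lie below -1.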

How the data were processed

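Total RNA (200 ng per array) was labelled with the 3' IVT Express kit and hybridised, 1 array per genotype, per the labels' protocols. The deposited values are RMA intensities on a linear scale, made by the authors with Affymetrix Expression Console per the submitters' processing notes; versions, and whether the arrays were summarised together, are not given in the sources used here. Log2 was taken with no pseudocount. Of 45037 probe sets 34945 had 1 gene symbol, 932 several and 9160 were unlisted and stay unnamed. Of the probe sets with 1 symbol, 34741 had a gene identifier in the RefSeq table of GRCm38.p6, which updated the symbols. For each gene the probe set brightest on average was taken. Calls needed 2-fold and a higher value at or above 33.4 units. A simulation with assumed noise, and changes larger than the rule in genes well above the floor, checked the code only. It says nothing of the noise of these arrays or of values near the floor. With 1 array per group no p-value or error can be given, and precision is limited by the 4 arrays. Members, lists and rules were chosen with earlier results of these data known. Named were all members' probe sets, up to 4 genes past the rule with the largest differences per list and the 2 nearest genes per member. Epcam, Cdh1, Krt8, Il6, Stat3, Cd14, Cd177, Elane, Ngp, Mmp9, Apob, Tat, Apoh, genes named only to complete a count and markers under the floor were picked after their values were seen. Python 3.11.15, pandas 2.3.3, numpy 2.4.6 and scipy 1.17.1 were used. The 10 alternatives covered the probe set per gene, floor, scaling, fold and an added constant, and 1 more, chosen after seeing the data, raised values under the floor to it.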

Additional observations from a re-analysis of the deposited data

Results flagged for a closer look

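Taking the labels as given, for 4 of the acute-phase genes loss of one Polycomb gene went with a difference of opposite direction depending on whether the other was also lost, each at least 2-fold and each from 1 array against 1 array. Over all 12154 genes at or above the floor on some array, 3.53% met the same rule for at least one of the losses. The difference between the 2 directions was not tested. Mel18 loss went with -3.44 for Saa3 in the presence of Bmi1 (Mel18-labelled minus WT) and with 1.12 in its absence (DKO-labelled minus Bmi1-labelled), with -3.68 and 2.18 for Lrg1, and with -1.50 and 2.77 for Hp. Bmi1 loss went with -3.53 for Saa3 in the presence of Mel18 and 1.03 in its absence, with -2.04 and 2.23 for Hp, and with -1.34 and 1.00 for Lcn2. Values under the floor enter the Lrg1, Hp and Lcn2 differences. With those raised to the floor, Lrg1 read 0.83 for Mel18 loss in the absence of Bmi1, Hp read -0.83 for each loss alone and 1.56 for each loss in the absence of the other gene, and Lcn2 read 0.62 for Bmi1 loss in the absence of Mel18. Saa3 has no value under the floor, but its higher values are small: with 32 units added they read 0.85 (Mel18 loss) and 0.78 (Bmi1 loss), under 2-fold, and the second read 0.97 with arrays centred on the median of all probe sets.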

How the results depend on the processing

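No paired analysis was possible because each genotype has 1 array. No called difference of a member changed sign under any alternative run. Of the 176 counts of members recomputed, 153 stayed within 1.5 times and 23 moved. This share is no measure of how firm the calls are. Many of the counts were 0 in the main run and had little room to move, and a fall from 3 to 2 stays within the limit. Without probe sets of the _s_at, _x_at and _a_at types, 5 members keep a value, and 3 were lower on the Bmi1-labelled and 3 on the Mel18-labelled array against WT, with 1 higher for DKO-labelled minus Mel18-labelled. With the floor at percentile 75 (136 units) these counts were 3, 3 and 1, with 1 higher for DKO-labelled minus Bmi1-labelled, 0 lower for Bmi1-labelled minus Mel18-labelled and 3 past the non-additive rule. Centring on all probe sets left 1 higher for DKO-labelled minus Mel18-labelled, and centring on genes at or above the floor gave 5 higher for DKO-labelled minus Bmi1-labelled. Under the 1.5-fold rule 5 were lower and 1 higher for DKO-labelled minus WT, and 5 were higher against each single knockout. Under the 4-fold rule 2 were lower on the Mel18-labelled array, 1 was higher for DKO-labelled minus Mel18-labelled and 0 lower for Bmi1-labelled minus Mel18-labelled. With 32 units added, 3 and 3 were lower on the single-knockout arrays, 1 was higher for DKO-labelled minus Mel18-labelled and 0 lower for Bmi1-labelled minus Mel18-labelled. With values under the floor raised to it, the last count was 0. Over all genes, the share of called genes that were higher moved with centring on all probe sets and on genes at or above the floor: from 66.8% to 76.1% and 38.2% (Bmi1-labelled minus WT), from 55.8% to 63.2% and 36.6% (Mel18-labelled minus WT), from 35.1% to 27.4% and 61.4% (DKO-labelled minus Bmi1-labelled), from 45.9% to 39.5% and 62.8% (DKO-labelled minus Mel18-labelled) and from 62.8% to 67.4% and 51.2% (Bmi1-labelled minus Mel18-labelled). Hp, Lcn2 and the Bmi1-labelled Lrg1 value lie near or under the floor, which limits the size of their differences.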

Other observations

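Acute-phase proteins outside the 8 genes went in several directions. Of 45 further genes listed 37 were measured, 15 of them at or above the floor on some array, and the liver products Crp, Apcs, Orm1 and Hpx lay under it on all 4. The metallothionein Mt1, a zinc-binding protein that inflammation induces in liver, read 3592 in WT, 8427 for the Bmi1-labelled sample, 10359 for the Mel18-labelled sample and 11726 for the DKO-labelled one, lowest in WT where Saa3 was highest. Steap4, a metalloreductase, read 253, 528, 139 and 58.4, and Vnn1, a pantetheinase, 16.1, 31.8, 24.8 and 407. Serpina3n, a serine protease inhibitor singled out after its values were seen, read 145, 51.3, 53.7 and 191, the order of arrays seen for Hp. Itih2, a chain of a hyaluronan-binding inhibitor, read 32.4, 104, 91.9 and 18.3, high on the single-knockout arrays. In all, 2 of 13 tested were called lower and 6 higher for the Bmi1-labelled sample, 1 of 12 and 3 for the Mel18-labelled sample and 1 of 13 and 5 for the DKO-labelled one. These are 61.5%, 33.3% and 46.2% of the genes tested, beside 8.61%, 5.65% and 4.32% of all genes called in either direction.

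Of the proteins whose plasma level drops in the acute phase, 12 of 13 were measured and none was called lower against WT. With 5, 5 and 6 genes tested, and 2.86%, 2.50% and 2.19% of all genes called lower, nothing can be read from that. Ttr, the thyroid hormone carrier transthyretin, read 954 in WT, 4883 for the Bmi1-labelled sample, 3595 for the Mel18-labelled sample and 1456 for the DKO-labelled one. Rbp4, the retinol carrier, read 102, 292, 102 and 113. Apoa1 and Apoc3, apolipoproteins, were called higher on the DKO-labelled array at 1.46 and 1.40. Apoa1 read 32.5 in WT and 89.8 on that array. Apoc3 read 13.4 in WT, under the floor, and 35.2 on that array, just above it, so the size of its difference rests on a value under the floor. The counts higher were 2 of 5 tested, 2 of 5 and 2 of 6 on the Bmi1-labelled, Mel18-labelled and DKO-labelled arrays. Of all genes tested 5.76%, 3.15% and 2.13% were called higher on these arrays.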
